A study of Mus musculus with 12 samples.

Results

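The comparison described here set cardiac fibroblasts that received the reprogramming factors together with a non-targeting hairpin against fibroblasts that received a control vector, both collected at day 3. It uses 4 of the 12 libraries of the study, 2 of each group, and every gene with at least 1 CPM (assigned reads scaled to a library total of 1000000) in at least 2 of these 4 libraries. This left 12702 of the 23423 genes in the deposited table. Of these, 147 met the rule only through the control libraries and 108 only through the libraries with MGT and hairpin, so a gene of that kind had to differ, and it is named as such where it enters a count.

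The cells were neonatal cardiac fibroblasts of CD1 mice at postnatal day 1.5, an outbred strain, purified on magnetic columns for the surface protein Thy1 and grown on gelatin in serum-containing medium. The control wells received 50 µl of the empty retrovirus, which the titles call lacZ and other labels call an empty vector, so it is called the control vector here. The wells of the second group, called MGT-shNT here, received 50 µl of a retrovirus carrying Mef2c, Gata4 and Tbx5 (MGT) and 50 µl of a lentivirus carrying a short hairpin RNA that targets no mouse gene. A further group, called MGT here, received the MGT retrovirus with no lentivirus, and another received MGT with a hairpin against the splicing factor Ptbp1. Fresh Thy1-sorted fibroblasts and fresh cardiomyocytes made up the remaining 4 libraries. Because the control wells had no lentivirus, the MGT retrovirus and the hairpin lentivirus cannot be told apart when MGT-shNT is set against control. The labels do not say that the 2 libraries of a group came from separate cultures or animals. The p-values therefore measure only the spread between libraries of the same group, which may be technical. That spread was estimated from all 12 libraries in 6 groups.

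Direct cardiac reprogramming turns fibroblasts into cells with cardiomyocyte features without passing through a stem cell. Mef2c, Gata4 and Tbx5 are transcription factors of heart development: Mef2c binds A/T-rich elements near muscle genes, Gata4 binds GATA elements and Tbx5 binds T-box elements, and all of them act together on genes of the sarcomere, the contractile unit of muscle. Neonatal heart preparations also hold resident macrophages, phagocytes that depend on the receptor Csf1r and on the transcription factor PU.1, and that can persist in fibroblast cultures.

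The 4 libraries held 89398980 to 94005212 assigned reads, and replicates of one group had a pooled SD, over the 13977 genes tested, of 0.0951 log2 units in control and 0.0864 in MGT-shNT. Fibroblast markers were present in all 4 libraries: Pdgfra, a receptor of fibroblasts, was at 104 and 104 scaled CPM in control and 91.0 and 91.2 in MGT-shNT, and the summed level of 19 fibroblast identity genes was 5559 and 5627 scaled CPM in control and 6465 and 6642 in MGT-shNT. Scaled CPM are CPM divided by a factor for each library. They are not corrected for gene length, so levels are compared between libraries and not between genes. Ptbp1, at which the non-targeting hairpin is not directed, was at 354 and 361 scaled CPM in control and at 359.8 and 365 in MGT-shNT, a log2 difference of 0.02 (adjusted p = 0.679). With the Ptbp1 hairpin it was at 81.1 and 78.5.

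In all, 7771 of the 12702 genes (61.2%) passed the threshold of adjusted p = 0.05 in limma's moderated test with Benjamini-Hochberg adjustment. Of these, 4194 (33%) were higher in MGT-shNT and 3577 (28.2%) were lower, and the median log2 change over all genes of the rule was 0.02. Most of these differences were small. Only 93 genes (0.732%) were higher by at least 2-fold, against 467 genes (3.68%) that were lower by at least 2-fold; the 93 became 38 when a pseudocount of 2 replaced 0.5. Fold changes here are on the log2(scaled CPM + 0.5) scale, which understates the change of genes at low level. With TMM scaling the balance of calls turned, with 3766 higher and 3909 lower. In edgeR's quasi-likelihood test, which also used TMM scaling, 3828 were higher and 3943 lower. Without further scaling 4081 were higher and 3674 lower, and upper-quartile scaling and quantile normalization also kept more genes higher than lower. Of the 467 large decreases 12 were among the 14 macrophage markers, and of the 93 large increases 4 were sarcomere genes, as the plot of fold change against level shows.

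**Figure D1:**
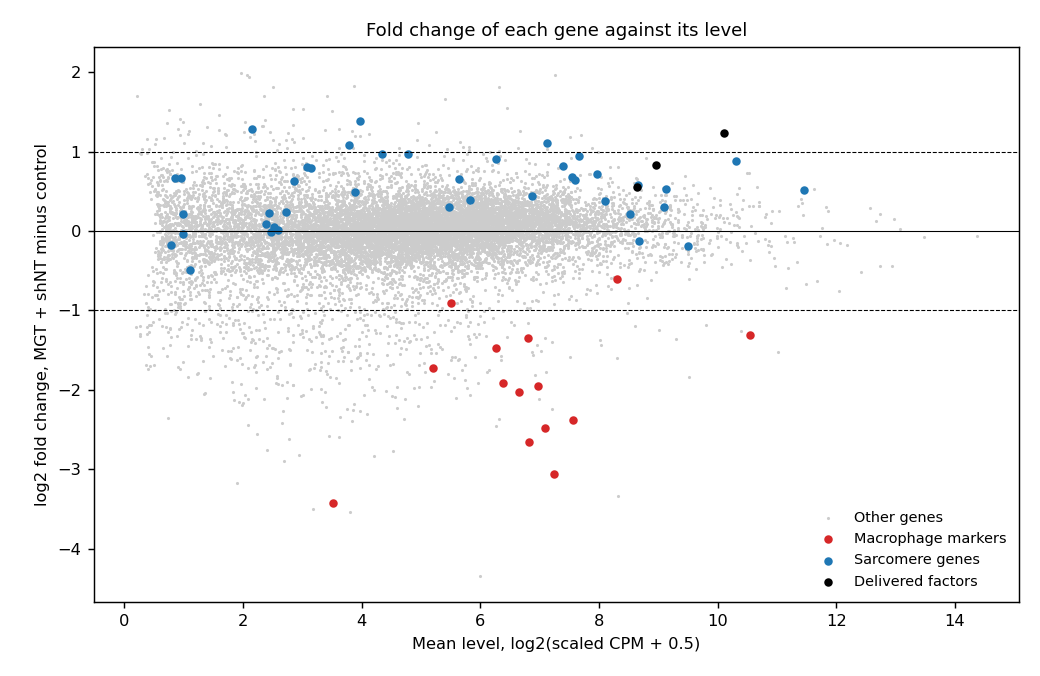
Log2 fold change of MGT-shNT over control (vertical) against mean level as log2(scaled CPM + 0.5) (horizontal) for each of the 12702 genes. Macrophage markers are red, sarcomere genes blue and the 3 delivered factors black; dashed lines mark 2-fold. All 14 macrophage markers lie below 0, and 30 of the 41 sarcomere genes were called higher.

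All 3 delivered factors were called higher than in control, and all 3 were called lower than in the MGT group. The reads of the transgenes and of the mouse genes cannot be told apart in this table. Tbx5 was at 645 and 678 scaled CPM in control and at 1560.4 and 1541 in MGT-shNT, an increase of 1.23 on the log2 scale (SE 0.050, adjusted p = 1.94e-13). Gata4 went from 341 and 375 to 645 and 626, an increase of 0.83 (SE 0.040, adjusted p = 2.75e-12). Mef2c went from 313 and 331 to 476 and 469.8, an increase of 0.55 (SE 0.039, adjusted p = 6.09e-10). In no case did the libraries of the groups overlap. In the MGT group Mef2c was at 720.1 and 761, and the log2 difference of MGT-shNT from MGT was -0.65 (adjusted p = 8.47e-11). That difference was -0.22 for Tbx5 (adjusted p = 0.00126) and -0.12 for Gata4 (adjusted p = 0.0169). Control cultures themselves carried far more Tbx5 than fresh fibroblasts, in which it was at 6.94 and 7.52.

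Heart muscle genes were followed in 8 lists by role, from sarcomere filaments to energy supply. The lists held 138 names, 137 of them in the table, and 107 met the rule. Of the 107, Lmod3 and Esrrg met it only through the MGT-shNT libraries and Hcn4 only through the control libraries, so the direction of their calls was fixed by the rule. Of these 107, 73 (68.2%) were called higher in MGT-shNT than in control and 13 (12.1%) lower, beside 33% and 28.2% of all genes of the rule, with a median log2 change of 0.39 beside 0.02. For MGT against control, which uses the same control libraries, 65 of the 107 were higher and 6 lower, beside 19% and 19.1% of all genes. That background held 2423 lower genes, and 1566 without MGT replicate 2. Tested directly against the MGT group, 35 of the 107 were higher in MGT-shNT and 26 lower, beside 26.4% and 20.8% of all genes.

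As context for the delivered factors, the 250 bases before the RefSeq start of each gene (build GRCm38.p6, strain C57BL/6J, whereas the cells were CD1) were searched on both strands for 1 short form of each element: CTA followed by any 4 bases and TAG for MEF2, AGATAA for GATA and GGTGTGA for the T-box. The MEF2 form reads the same on both strands, so each such match is found on both and counted once; otherwise no match overlapped another in the promoters printed here. Of the 73 heart muscle genes called higher, 56 were matched by symbol, with 69 promoters, and the MEF2 form was in 10 of these (14.5%). It was in 0 of the 39 promoters of the 29 matched genes that were not called higher, in 3.20% of all 32851 promoters and in 2.65% of the 12116 promoters of genes of the rule. The GATA form was in 8 of the 69 (11.6%), in 7 of the 39 (17.9%), in 9.99% of all promoters and in 5.80% of those of genes of the rule. The T-box form was in 4 of the 69 (5.80%), in 1 of the 39 (2.56%), in 3.33% of all promoters and in 2.65% of those of genes of the rule. A match is a string of letters and not a shown binding site, and its absence says only that these letters are not in this window. The 3 promoters below are those of genes described next, and each holds a match, which most of the 69 promoters do not. Capitals mark a MEF2 match in Ttn, a MEF2 match and 2 GATA matches in Smpx, and a T-box match in Tnni3. The printed promoters lie at chr2:76982548-76982797 on the minus strand (Ttn), chrX:157698723-157698972 on the plus strand (Smpx) and chr7:4522529-4522778 on the minus strand (Tnni3). The gene positions given below are from another annotation, GENCODE M21, and the starts differ. By those positions the whole Tnni3 window lies inside the gene. So does the end of the Smpx window, with its last GATA match.
Ttn: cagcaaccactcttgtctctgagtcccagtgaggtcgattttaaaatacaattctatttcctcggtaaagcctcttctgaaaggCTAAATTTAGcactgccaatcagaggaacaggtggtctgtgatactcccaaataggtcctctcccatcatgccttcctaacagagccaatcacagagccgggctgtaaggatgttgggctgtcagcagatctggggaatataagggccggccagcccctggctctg
Smpx: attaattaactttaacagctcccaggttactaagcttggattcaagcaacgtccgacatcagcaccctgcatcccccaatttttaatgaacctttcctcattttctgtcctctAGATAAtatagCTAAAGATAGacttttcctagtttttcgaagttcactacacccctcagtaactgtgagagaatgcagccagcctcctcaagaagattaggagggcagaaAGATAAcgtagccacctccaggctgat
Tnni3: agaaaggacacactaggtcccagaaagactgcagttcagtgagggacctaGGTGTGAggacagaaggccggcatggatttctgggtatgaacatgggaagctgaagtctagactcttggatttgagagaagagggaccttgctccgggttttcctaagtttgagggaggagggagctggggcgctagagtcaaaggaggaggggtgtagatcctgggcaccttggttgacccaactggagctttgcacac

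Among thin filament genes, 7 of 11 were higher and none was called lower (1 without control replicate 2), beside 8 and 0 for MGT against control. These and the counts of the lists below read against 33% higher and 28.2% lower of all genes here, and against 19% and 19.1% for MGT. Tnni3, the cardiac inhibitory troponin (chromosome 7, 4518305 to 4524229, minus strand, build mm10), was at 8.79 and 7.68 scaled CPM in control, 18.9 and 21.9 in MGT and 22.2 and 22.5 in MGT-shNT. The groups with MGT did not overlap control, and the increase over control was 1.39 on the log2 scale (2.62-fold, SE 0.067, adjusted p = 2.67e-12). Fresh cardiomyocytes had 789 and 791. Lmod2, leiomodin, which lengthens thin filaments, rose by 1.08 from 8.48 and 8.18 to 17.7 and 18.6. Tnnt2, cardiac troponin T, was already at 2423 and 2187 in control and rose by 0.52 to 3167 and 3446 (adjusted p = 4.45e-07). Against the MGT group none of these 3 genes passed the test: the differences were 0.13, 0.07 and 0.07. Actc1, cardiac actin, behaved otherwise. It was at 94.2 and 104 in control, 226 and 232 in MGT and 134 and 135 in MGT-shNT, so that it was above control by 0.44 (adjusted p = 1.45e-07) and differed from MGT by -0.76 (adjusted p = 9.53e-11). Acta1, skeletal actin, was low throughout, at 1.12 and 0.700 in control and 1.57 and 1.87 in MGT-shNT.

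Of the 11 thick filament and M-band genes, 7 were higher and 1 lower, the same counts as for MGT against control. Myl4, the atrial essential light chain, was at 880.0 and 908 in control and at 1596 and 1704 in MGT-shNT, an increase of 0.88 (SE 0.044, adjusted p = 3.98e-12). Mybpc3, cardiac myosin binding protein C, was at 35.0 and 41.2 in control, 39.9 and 38.4 in MGT and 61.9 and 58.6 in MGT-shNT. Here the MGT group differed from control by 0.04 (adjusted p = 0.591) and MGT-shNT by 0.66 (adjusted p = 9.78e-09), and the difference between the groups with MGT passed the test at 0.61 (adjusted p = 3.75e-08). Myom2, myomesin of the M-band, stood the other way round, at 136 and 142 in control, 342 and 341 in MGT and 269.9 and 266 in MGT-shNT. The heavy chain Myh6 rose by 0.39, from 47.2 and 50.5 to 63.0 and 65.2. Myl3, the ventricular essential light chain, fell by 0.49, from 1.99 and 2.03 to 1.46 and 1.13 (adjusted p = 0.00015), and fresh cardiomyocytes had 1094 and 1067.

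Of the 19 titin and Z-disc genes, 16 were higher and 2 lower, beside 13 and 1 for MGT against control; the 2 lower became 1 without control replicate 2 or MGT-shNT replicate 2. Ttn, the giant elastic filament (chromosome 2, 76703980 to 76982547, minus strand, build mm10), was at 74.4 and 103 in control and 202 and 178 in MGT-shNT. The increase of 1.11 (2.16-fold, SE 0.099, adjusted p = 1.78e-08) left it below the 250.2 and 268 of the MGT group, a difference of -0.45 (adjusted p = 0.00106). Control replicate 2 was well above control replicate 1 for this gene, but no control library reached the MGT-shNT libraries. Smpx, a small stretch-linked protein of muscle (chromosome X, 157698910 to 157752591, plus strand, build mm10), was at 19.4 and 16.9 in control, 27.0 and 27.1 in MGT and 35.3 and 36.7 in MGT-shNT, above control by 0.97 (adjusted p = 5.48e-11) and above MGT by 0.41 (adjusted p = 1.15e-05). Trim63, the muscle ubiquitin ligase MuRF1, gave 13.0 and 13.6, 16.9 and 17.3 and 26.4 and 26.6 in the same order. Xirp2, which binds actin at cell junctions, rose by 1.29 over control and by 1.02 over MGT, with 5.89 and 5.71 in MGT-shNT against 1.97 and 2.20 in control. Desmin (Des), the intermediate filament of muscle, rose by 0.53 over control and differed from MGT by -0.35, at 449 and 468 in control, 834 and 852 in MGT and 644 and 676 in MGT-shNT. Thus Smpx, Trim63 and Xirp2 were called higher than in the MGT group and Ttn and Des lower.

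**Figure D2:**
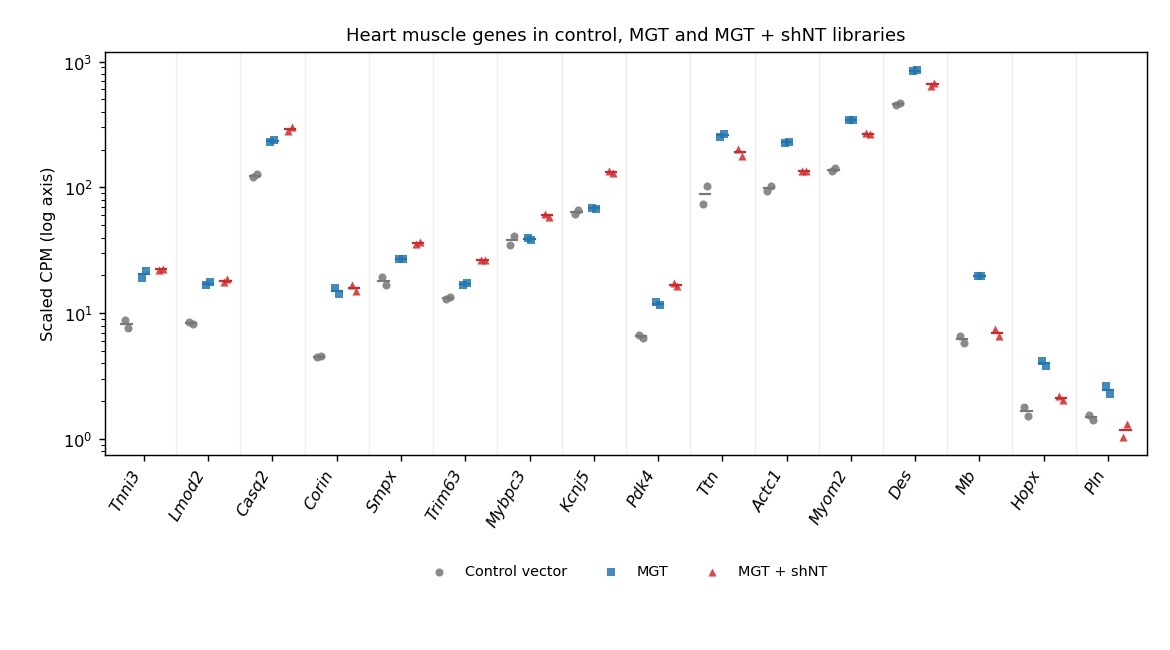
Scaled CPM (log axis) of 16 heart muscle genes in each control (grey), MGT (blue) and MGT-shNT (red) library; short bars are group means of 2 libraries. From Tnni3 to Pdk4 the MGT-shNT libraries lie above the control libraries; Mb falls from about 19.9 with MGT to 7.04 with MGT-shNT, close to the control mean of 6.24.

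The summed level of the 48 sarcomere genes in the table (filaments, M-band and Z-disc) is set mainly by abundant genes, among them Tnnt2 and Myl4. It was 7478 and 7465 scaled CPM in control, 10461 and 10736 in MGT and 10309 and 10744 in MGT-shNT, a ratio of 1.41 of MGT-shNT to control. Fresh cardiomyocytes had 27419.6 and 26376 and fresh fibroblasts 3258 and 3328. The MGT-shNT libraries thus lay beside the MGT libraries and far under cardiomyocytes, and single genes with opposite differences lay under this nearly equal sum.

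Calcium handling genes were more divided: 11 of 19 were higher and 4 lower, beside 14 and 1 for MGT against control. The 4 lower genes were 2 without control replicate 1, without MGT-shNT replicate 1 and in 4 other settings. Casq2, calsequestrin, the calcium store of the sarcoplasmic reticulum, was at 122 and 127 in control and 279 and 299.7 in MGT-shNT (log2 1.21, SE 0.046, adjusted p = 7.43e-14), and was above the 229 and 238 of MGT by 0.31 (adjusted p = 2.33e-05). Ryr2, the release channel, rose from 108 and 122 to 206 and 194, and Trdn, triadin, which anchors calsequestrin to that channel, from 9.18 and 7.84 to 16.7 and 16.3. Sarcolipin (Sln), an inhibitor of the calcium pump, rose by 1.04, from 4.15 and 3.64 to 8.04 and 9.05. Atp2a2, the pump itself, rose by 0.26 over control and differed from MGT by -0.34, at 698 and 729.9, 1095 and 1081 and 876 and 840.4 in control, MGT and MGT-shNT. Cacna1d, a pore subunit of L-type calcium channels, fell by 1.34, from 7.06 and 7.07 to 2.38 and 2.59 (adjusted p = 3.68e-11), and differed from MGT by -1.07.

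A few members of this list that were higher with MGT were near control with MGT-shNT. Hrc, a calcium-binding protein of the reticulum, was at 1.30 and 1.04 in control, 2.55 and 2.36 in MGT and 1.17 and 1.24 in MGT-shNT; it did not pass against control (log2 0.03, adjusted p = 0.795) and differed from MGT by -0.79 (adjusted p = 2.53e-06). Pln, phospholamban, the pump's main regulator, was at 1.57 and 1.41, 2.66 and 2.27 and 1.05 and 1.32. Its log2 value against control was -0.25 (adjusted p = 0.0387), a call lost in 7 of 19 other settings, among them those without control replicate 1 and without MGT-shNT replicate 1. Fresh cardiomyocytes had 742 and 721, so all cultured libraries were low for Pln.

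Of 12 other ion channel and junction genes, 7 were higher and 2 lower, beside 6 and 0 for MGT against control. Kcnj5, a G-protein-gated potassium channel of the atrium, was at 61.5 and 66.6 in control, 69.0 and 67.3 in MGT and 136 and 129 in MGT-shNT. The increase over control was 1.05 (SE 0.045, adjusted p = 4.57e-13) and that over MGT 0.96 (adjusted p = 1.97e-12), while MGT and control differed by 0.09 (adjusted p = 0.129). Kcna5, the channel of the atrial repolarising current, rose by 1.34, from 3.53 and 3.55 to 8.72 and 10.8. Hcn4, the pacemaker channel, which met the rule only through control and is 1 of the 2 lower genes, was low, at 1.30 and 1.40 in control and 0.353 and 0.160 in MGT-shNT. Abcc9, the sulphonylurea receptor of the cardiac ATP-sensitive potassium channel, was at 1.94 and 1.65 in control and 1.84 and 1.68 in MGT-shNT, beside 3.83 and 3.29 in MGT (log2 -0.84 between the groups with MGT, adjusted p = 1.51e-07).

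Cardiac regulators were higher in 14 of 16 cases with none called lower, beside 9 and 0 for MGT against control. Esrrg, a nuclear receptor of oxidative metabolism, which met the rule only through MGT-shNT and is 1 of the 14, was at 0.700 and 0.836 in control and 2.21 and 2.25 in MGT-shNT. Rbm20, the splicing factor of Ttn, rose by 0.78, from 12.1 and 14.5 to 22.8 and 23.5 (adjusted p = 4.34e-08). Myocd, the serum response factor coactivator myocardin, rose by 0.74 to 15.7 and 13.9. Hand2, a heart field transcription factor, was at 28.6 and 27.0 in control, 28.5 and 29.7 in MGT and 37.6 and 40.7 in MGT-shNT, above MGT by 0.42 (adjusted p = 2.11e-06). Hopx, a homeodomain protein of differentiating heart muscle, was at 1.82 and 1.52, 4.21 and 3.80 and 2.22 and 2.06; its 0.29 over control was lost in 3 of 19 other settings, among them those without control replicate 2 and without MGT-shNT replicate 1, and it differed from MGT by -0.77 (adjusted p = 1.26e-06).

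In the natriuretic peptide system 2 of 6 genes were higher and 2 lower (1 without MGT-shNT replicate 2). Corin, the protease that activates atrial natriuretic peptide, rose by 1.70 (3.26-fold, SE 0.070, adjusted p = 2.32e-13), from 4.48 and 4.58 to 16.7 and 15.2, and MGT libraries had 15.9 and 14.1. The peptide gene Nppa did not pass, at 14.5 and 15.5 in control and 15.9 and 14.6 in MGT-shNT. Of 13 energy genes, 9 were higher and 2 lower, beside 6 and 2 for MGT against control. Pdk4, the kinase that turns off glucose oxidation, was at 6.79 and 6.43 in control, 12.3 and 11.6 in MGT and 17.3 and 16.5 in MGT-shNT (log2 1.29 over control and 0.48 over MGT). Acadl, a fatty acid oxidation enzyme, rose by 0.65, and Fabp3, the heart fatty acid carrier, by 0.56.

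Mb, myoglobin, the oxygen store of muscle, separated the groups with MGT. It was at 6.61 and 5.86 scaled CPM in control, 19.8 and 19.9 in MGT and 7.45 and 6.62 in MGT-shNT, and at 19.2 and 19.9 in the group with MGT and the Ptbp1 hairpin. The difference between MGT-shNT and MGT was -1.44 (adjusted p = 5.87e-13). Over control it was 0.16 (adjusted p = 0.0314), a call lost in 7 of 19 other settings, with adjusted p = 0.0633 under TMM scaling, 0.0912 in edgeR's quasi-likelihood test, 0.32 without control replicate 2 and 0.34 without MGT-shNT replicate 1.

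Of 17 skeletal muscle genes 8 met the rule, and 5 of these were lower in MGT-shNT and 2 higher, beside 0 lower and 3 higher for MGT against control. A filter at 5 CPM left 3 lower, and the 2 higher became 1 without either control replicate and without MGT-shNT replicate 2. Myh8, the perinatal myosin heavy chain, was at 15.9 and 16.1 in control, 18.0 and 18.0 in MGT, 3.01 and 3.40 in MGT-shNT and 16.7 and 13.7 with the Ptbp1 hairpin, a decrease of 2.16 against control (SE 0.100, adjusted p = 1.42e-12). Myh1, Myh2 and Myh4 were lower as well, but these genes lie side by side on chromosome 11 and are close copies, so reads may be split between them. Myh4 and Tnni2, both counted as lower, met the rule only through control, and Myl1, a fast light chain counted as higher, only through MGT-shNT, at 0.775 and 0.644 in control and 3.16 and 3.14 in MGT-shNT.

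**Figure D3:**
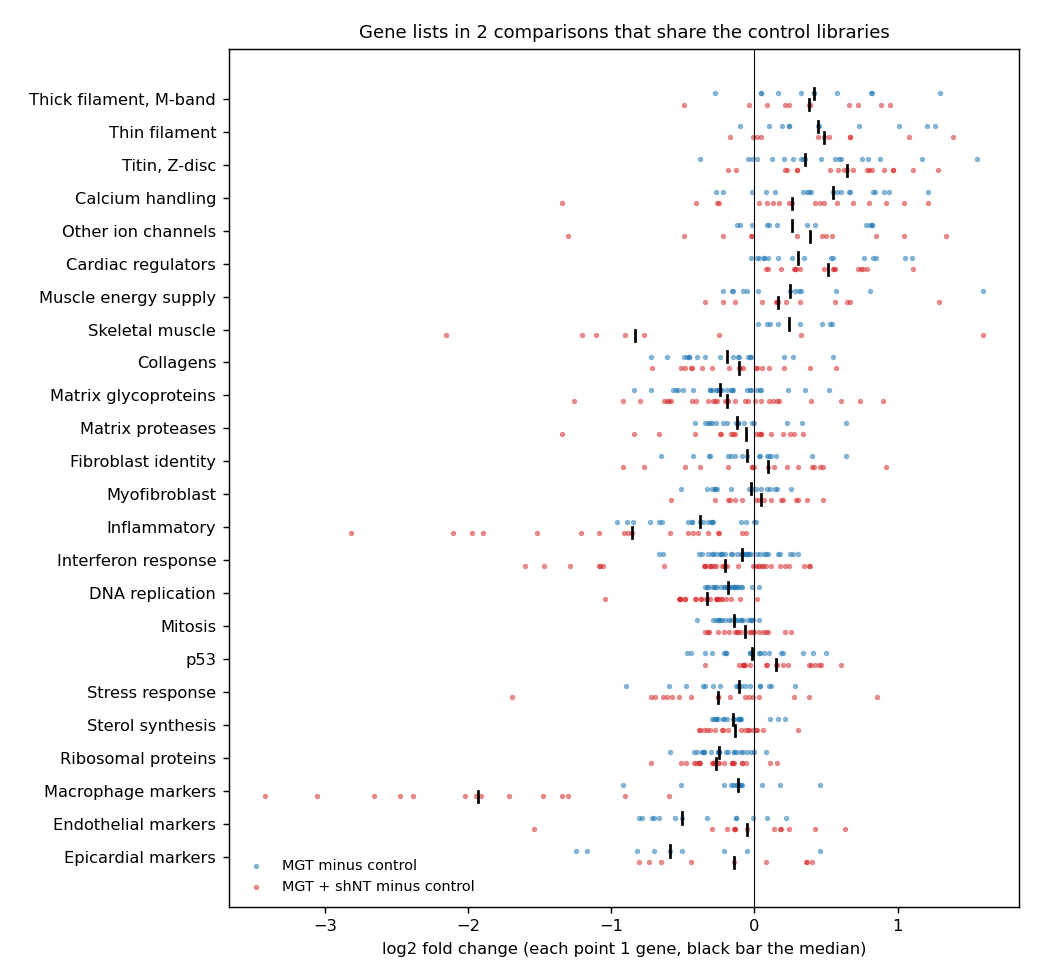
Log2 fold change against control (horizontal) of the members of 24 gene lists; each point is 1 gene, blue for MGT and red for MGT-shNT, with the list's median as a black bar. The comparisons share the control libraries. The macrophage list has a median of -1.93 with MGT-shNT and -0.11 with MGT, while the Z-disc list has 0.65 and 0.35.

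The clearest losses were those of macrophage genes. All 14 macrophage markers that met the rule were lower in MGT-shNT than in control (28.2% of all genes were), with a median log2 change of -1.93, and all 14 were lower than in MGT, with a median of -1.77. For MGT against control, 7 were lower and 2 higher, with a median of -0.11. The summed level of the 14 genes was 4549 and 4320.2 scaled CPM in control and 4560.0 and 4418 in MGT, and 1532 and 1583 in MGT-shNT, a ratio of 2.85 of control to MGT-shNT. It was 1684 and 1733 with MGT and the Ptbp1 hairpin, the other group that received lentivirus, and 1417 and 1405 in fresh fibroblasts. None of the 14 was at 0 in any of the 8 day 3 libraries. In bulk RNA, fewer cells of a type and less RNA per cell cannot be told apart.

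Among the receptors, Mrc1, the mannose receptor (chromosome 2, 14229392 to 14332057, plus strand, build mm10), was at 269.6 and 267 scaled CPM in control, 255 and 249 in MGT and 31.8 and 31.8 in MGT-shNT, a decrease of 3.06 on the log2 scale (8.31-fold, SE 0.040, adjusted p = 3.49e-20). Cx3cr1, the fractalkine receptor, fell by 3.42, from 18.2 and 22.7 to 1.76 and 1.17. Csf1r, the receptor for the macrophage growth factor, fell by 1.95, from 192 and 206 to 52.6 and 49.7, while its ligand gene Csf1 did not pass, at 790.1 and 847 in control and 804 and 765 in MGT-shNT. The 3 chains of complement C1q fell together: C1qa went from 323 and 312 to 59.3 and 61.8, C1qb from 200.3 and 189 to 29.6 and 31.2 and C1qc from 226 and 238 to 41.2 and 41.1. Lysosomal and adaptor genes were lower too. Lyz2, lysozyme, was at 2243 and 2043 in control and 845 and 888 in MGT-shNT (log2 -1.30), Tyrobp, an adaptor of immune receptors, changed by -1.35, and Cd68, a lysosomal protein, by -0.60. Ptprc, the pan-leukocyte protein CD45, was at 58.6 and 59.1 in control and 32.3 and 30.2 in MGT-shNT, a change of -0.90. Sfpi1, the older symbol of the gene for PU.1, a member of no list and chosen after its values were seen, went from 37.5 and 37.9 to 16.6 and 16.9.

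**Figure D4:**
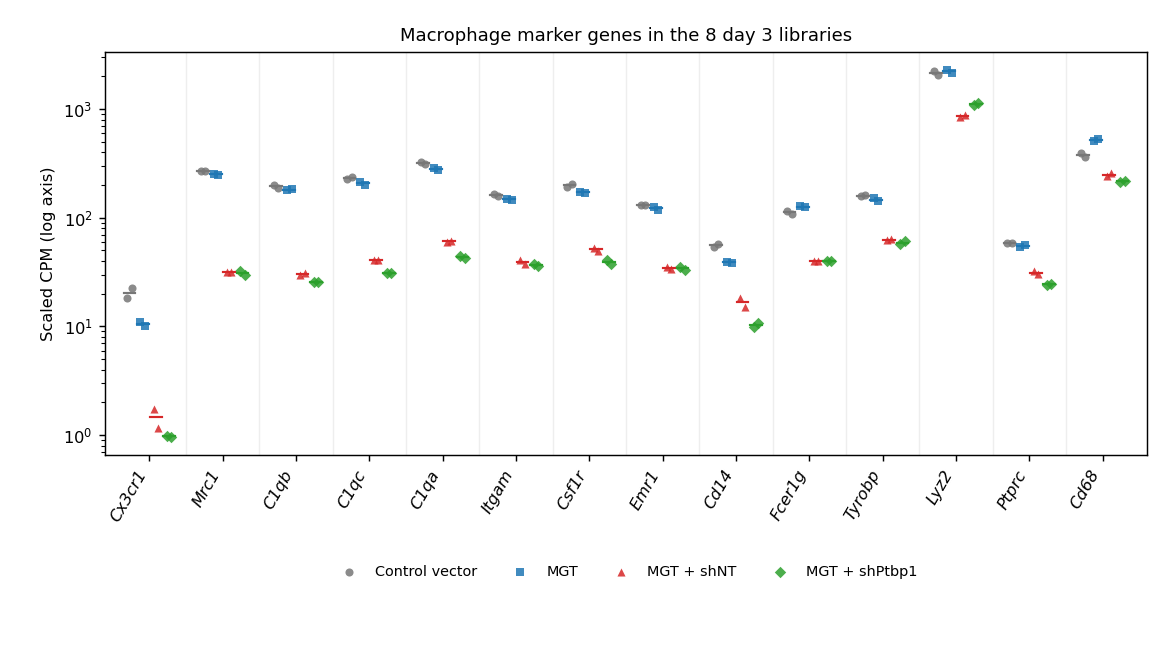
Scaled CPM (log axis) of the 14 macrophage markers in the 8 day 3 libraries: control (grey), MGT (blue), MGT-shNT (red) and MGT with the Ptbp1 hairpin (green); short bars are means of 2 libraries. For every gene the libraries of both hairpin groups lie under those of control and MGT, as for Mrc1 at 31.8 and 31.8 with MGT-shNT and 269.6 and 267 with control.

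The 12 largest decreases among called genes with at least 10 scaled CPM in control held 3 of the 14 markers, Cx3cr1, Mrc1 and C1qb, and other genes known from immune cells. Fcgr2b, the inhibitory Fc receptor (chromosome 1, 170958617 to 170976547, minus strand, build mm10), led them, with 130.4 and 112 in control, 109 and 101 in MGT, 5.44 and 5.49 in MGT-shNT and 7.28 and 7.26 with the Ptbp1 hairpin (log2 -4.35 against control, 20.4-fold, adjusted p = 1.71e-19). Stab1, a scavenger receptor, went from 555 and 604 to 59.5 and 54.1. Il21r, a cytokine receptor, went from 15.9 and 16.2 to 0.992 and 0.940. Il21r met the rule only through the control libraries, so its direction was fixed by the rule. Fcrls, an Fc receptor-like protein of macrophages, went from 25.9 and 24.5 to 1.88 and 1.57. The others were the sialic acid receptor Cd22 at -2.89, thromboxane synthase Tbxas1 at -2.84, the chemokine Ccl12 at -2.82, the membrane protein Ms4a6c at -2.77 and the purinergic receptor P2ry13 at -2.63 on the log2 scale.

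The promoter of Mrc1 is printed because it held 2 matches to GAGGAAG, a short form of the PU.1 element, both on the minus strand, so that the capitals show its reverse complement. It lies at chr2:14229164-14229413 on the plus strand of GRCm38.p6. By the gene position given above, the last bases of this window lie inside the gene, and both matches lie before it. The form was in 3 of the 10 promoters (30%) of the 9 macrophage markers matched by symbol, those of Mrc1, C1qc and Itgam, in 10.6% of all promoters and in 10.9% of those of genes of the rule.
Mrc1: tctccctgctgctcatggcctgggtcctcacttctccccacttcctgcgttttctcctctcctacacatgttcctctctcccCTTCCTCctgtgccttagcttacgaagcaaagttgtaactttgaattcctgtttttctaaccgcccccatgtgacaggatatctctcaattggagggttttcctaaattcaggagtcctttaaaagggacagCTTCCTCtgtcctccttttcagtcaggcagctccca

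Markers of other cell types were followed in the same way. Of 13 endothelial genes, 6 were higher and 4 lower (2 lower with only the 4 or the 8 day 3 libraries fitted), and the summed level of the 14 such genes in the table was 613 and 641 scaled CPM in control and 685 and 673 in MGT-shNT. Vwf, von Willebrand factor, fell by 1.54, from 26.7 and 26.9 to 9.28 and 8.46, while Plvap, of fenestrated endothelium, rose by 0.63 and Emcn, endomucin, by 0.42. Against MGT, 9 of the 13 were higher in MGT-shNT, beside 26.4% of all genes. The epicardial sum was 175 and 177 in control and 179.8 and 182 in MGT-shNT, with Lrrn4 up by 0.36 and Krt8 down to 4.54 and 4.27 from 8.19 and 7.95. The pericyte sum was 391 and 446 in control and 426 and 424 in MGT-shNT. Of 7 lymphocyte markers, whose summed level was 5.84 and 6.18 in control and 1.44 and 1.41 in MGT-shNT, Cd4 alone met the rule, and only through the control libraries, at 5.56 and 5.91 in control and 0.889 and 0.905 in MGT-shNT, and erythroid markers were at or near 0 in all 4 libraries.

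Inflammatory genes were lower in 17 of 19 cases and higher in none, beside 28.2% of all genes lower; for MGT against control 15 were lower, beside 19.1% of all genes. The medians were -0.86 and -0.38. Ccl5, 1 of the 17, met the rule only through control. Ccl7, a monocyte-attracting chemokine, was at 78.7 and 75.9 in control, 55.9 and 55.7 in MGT and 18.7 and 16.4 in MGT-shNT (log2 -2.11, SE 0.060, adjusted p = 1.29e-15). Ccl2, another such chemokine, was at 167 and 177, 131 and 124 and 62.7 and 56.9 in the same order. Tnf fell by 1.97, from 7.21 and 6.64 to 1.49 and 1.30, and Saa3, an acute phase protein, by 1.90. Icam1, an adhesion protein, fell from 72.3 and 74.4 to 36.0 and 32.7, while MGT libraries had 58.3 and 56.0. Against MGT, 12 of the 19 were lower in MGT-shNT, beside 20.8% of all genes, and 1, Csf1, was higher. Macrophages make several of these products. The summed macrophage level was 4549 and 4320.2 in control, 4560.0 and 4418 in MGT and 1532 and 1583 in MGT-shNT. The summed level of the 24 inflammatory genes in the table was 1664 and 1744, 1259 and 1271 and 1291 and 1232 in the same order. Csf1, whose levels are given above, made up a large part of this sum, which therefore says little about the other genes. The part of macrophages in the result was not tested.

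Interferon response genes were lower in 19 of 34 cases and higher in 4, beside 6 and 2 for MGT against control. Without MGT-shNT replicate 2 the 19 became 10, and without MGT-shNT replicate 1 the 4 became 2. Mx1, an antiviral GTPase, was at 4.70 and 4.67 in control and 1.68 and 0.837 in MGT-shNT, Zbp1, a sensor of viral nucleic acid, at 8.11 and 7.54 and 2.87 and 2.17, and Psmb9, of the immunoproteasome, at 5.35 and 4.83 and 1.78 and 1.79. B2m, the light chain of MHC class I, rose by 0.39, from 1270.4 and 1118 to 1518 and 1604. Ifit1, induced by viral RNA, did not pass, at 54.2 and 59.8 in control and 67.3 and 52.6 in MGT-shNT. MGT-shNT replicate 2 was the lower library for Mx1, Zbp1 and Ifit1. The summed level of the 34 genes was 2961 and 2844 in control and 3179 and 3108 in MGT-shNT. B2m alone, at the levels given above, made up a large part of this sum, which therefore says little about the other genes. The part of macrophages in these changes was not tested.

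Extracellular matrix genes, the main products of fibroblasts, fell more often than they rose. Of 47 collagens and matrix glycoproteins, 26 were lower (55.3%) and 11 higher (23.4%), beside 28.2% and 33% of all genes; the 11 became 7 without MGT-shNT replicate 1. For MGT against control, 29 were lower and 6 higher. Eln, elastin (chromosome 5, 134702593 to 134747323, minus strand, build mm10), was at 1888 and 1933 scaled CPM in control, 1137 and 1179 in MGT and 809 and 785 in MGT-shNT, a decrease of 1.26 on the log2 scale (2.40-fold, SE 0.043, adjusted p = 1.42e-14), and differed from MGT by -0.54 (adjusted p = 5.31e-09). Mfap4, a microfibril protein, fell by 0.92, from 215 and 180.3 to 104 and 104. Col3a1 fell by 0.72, from 2839.6 and 2811 to 1751 and 1687, Col1a2 by 0.51 and Col1a1 by 0.44, with Col1a1 at 8217 and 9830.0 in control and 6797 and 6469 in MGT-shNT. For Col1a1 and Col1a2 the difference from MGT did not pass, at -0.09 and -0.05.

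A smaller set of matrix genes rose. Mfap5 rose by 0.90, from 14.5 and 15.2 to 28.0 and 28.1. Aspn, asporin, was at 27.0 and 23.2 in control, 20.4 and 21.6 in MGT and 41.3 and 42.7 in MGT-shNT, above control by 0.74 (adjusted p = 1.71e-09) and above MGT by 0.98 (adjusted p = 3.47e-11). Postn, periostin, was lower with MGT than with control, at 1870.1 and 1927 against 2359 and 2343, and higher with MGT-shNT, at 3113 and 3078. Col6a3 rose by 0.57, from 580.5 and 649 to 918 and 908. Against MGT, 19 of the 47 were higher in MGT-shNT and 10 lower, beside 26.4% and 20.8% of all genes.

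Of 18 matrix proteases and inhibitors, 8 were lower and 4 higher, beside 28.2% and 33% of all genes. Mmp3, stromelysin, fell by 1.35, from 38.4 and 38.6 to 15.6 and 14.1, and Timp3, a matrix-bound inhibitor, by 0.84, from 579.6 and 577 to 325 and 319.9. Fibroblast identity genes did not move one way, with 8 of 17 higher and 5 lower, beside 33% and 28.2% of all genes. Thy1, on which the cells had been sorted, rose by 0.92, from 299.8 and 313 to 566 and 594, and Meox1, a homeobox gene of activated fibroblasts, fell by 0.92. Tcf21, a transcription factor of resident cardiac fibroblasts, was above MGT by 0.45 (adjusted p = 1.14e-08). Of 16 myofibroblast genes, 7 were higher and 5 lower, with Cnn1, calponin, down by 0.59 and Acta2, smooth muscle actin, up by 0.29.

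**Figure D5:**
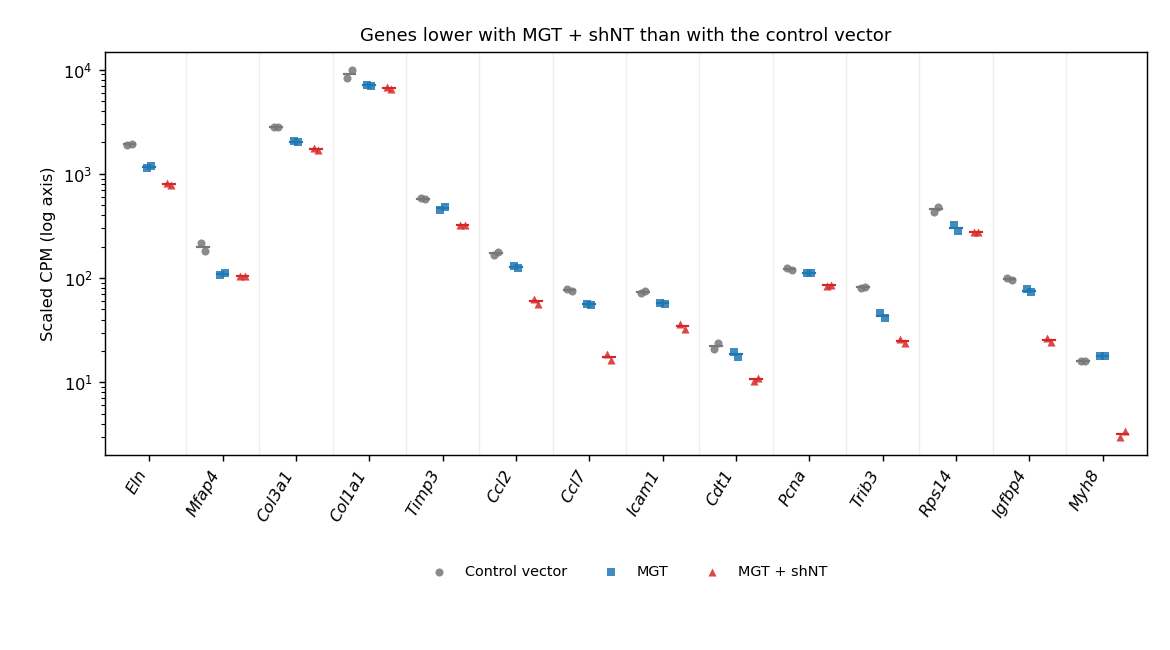
Scaled CPM (log axis) of 14 genes lower with MGT-shNT in each control (grey), MGT (blue) and MGT-shNT (red) library; short bars are means of 2 libraries. For Col1a1 the MGT and MGT-shNT libraries lie close together, whereas for Ccl7, Igfbp4 and Myh8 the MGT libraries lie nearer to control than to MGT-shNT.

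DNA replication genes were lower in 22 of 24 cases, with none called higher, beside 28.2% and 33% of all genes, but the changes were small, with a median of -0.34. For MGT against control 16 were lower and 0 higher, beside 19.1% and 19% of all genes. Cdt1, which loads the replicative helicase, went from 21.1 and 23.9 in control to 10.2 and 11.1 in MGT-shNT (log2 -1.04, adjusted p = 1.53e-09). Pcna, the sliding clamp, went from 126 and 119 to 83.7 and 86.6 and Rrm1, of ribonucleotide reductase, from 109 and 104 to 73.8 and 74.4. Genes of mitosis were lower in 8 of 20 cases and higher in 2 (4 without control replicate 1), beside 28.2% and 33% of all genes, with Cdc20 at -0.34 and Nusap1 at 0.25. For MGT against control 11 of the 20 were lower and 0 higher, beside 19.1% and 19% of all genes. Tested directly against MGT, 8 of the 20 were higher in MGT-shNT and 2 lower, beside 26.4% and 20.8% of all genes. Of 19 p53 target and senescence genes, 9 were higher and 2 lower (1 without control replicate 2 or MGT-shNT replicate 2), with Ccng1, cyclin G1, up by 0.61 and Mdm2, the p53 ligase, up by 0.42, from 123 and 121 to 164 and 163; Mdm2 was at 121 and 118 in MGT.

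Stress response genes were lower in 11 of 18 cases and higher in 3. Trib3, a target of the amino acid response factor Atf4, was at 80.7 and 82.3 in control, 45.9 and 41.1 in MGT and 25.9 and 23.9 in MGT-shNT, a decrease of 1.69 (SE 0.077, adjusted p = 1.03e-12). Phgdh, the entry enzyme of serine synthesis, fell by 0.73. Slc7a11, the cystine transporter, rose by 0.86 over control and by 1.34 over MGT, with 15.0 and 16.7, 10.2 and 12.3 and 29.4 and 28.8 in control, MGT and MGT-shNT. Ribosomal protein genes were lower in 19 of 24 cases, beside 18 for MGT against control, with medians of -0.27 and -0.25; close gene copies make single members uncertain. The 2 called higher were Rps24 at 0.16 and Rpl11 at 0.11, and none was with TMM scaling, without control replicate 2 or without MGT-shNT replicate 2. Of 18 sterol synthesis genes, 8 were lower and 1 higher.

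Among growth factor genes, Igfbp4, which binds insulin-like growth factors, was at 100.4 and 96.4 in control, 78.3 and 73.6 in MGT and 26.8 and 24.6 in MGT-shNT (log2 -1.92, SE 0.043, adjusted p = 5.25e-17). Igf1 fell by 0.88, from 106 and 97.8 to 54.4 and 55.7, and Igf2 rose by 0.90, from 73.0 and 78.4 to 142 and 142. Igfbp5 was higher with MGT, at 395 and 397, than with control or MGT-shNT, at 171 and 166 and 199.9 and 193, and the difference between the groups with MGT was -1.01 (adjusted p = 1.43e-14). In this list 5 of 10 genes were lower and 3 higher (5 higher without control replicate 2). Of 19 TGF-beta and BMP genes, 10 were higher and 5 lower, with the ligand Tgfb2 up by 0.72 and Id2, a target that blocks helix-loop-helix factors, down by 0.90. Smad6, the inhibitor of BMP signals, was at 47.8 and 53.6, 34.5 and 35.5 and 72.4 and 70.6 in control, MGT and MGT-shNT, above MGT by 1.02 (adjusted p = 1.83e-10). Nog, the BMP antagonist noggin, was at 1.88 and 2.24, 6.40 and 6.07 and 3.15 and 3.60, a difference from MGT of -0.80 (adjusted p = 4.15e-05). Of 8 Notch genes, 6 were lower and 1 higher, with Lfng, which glycosylates Notch receptors, down by 1.35. Of 16 Wnt genes, 4 were higher, 1 of them (Rspo2) through MGT-shNT only, and 5 lower, close to the shares of all genes (33% and 28.2%), with the antagonist Wif1 up by 1.11 and the antagonist Sfrp1 down by 0.73.

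The 12 largest increases among called genes with at least 10 scaled CPM included Egr1, an immediate-early transcription factor, at 61.1 and 62.3 in control, 89.8 and 95.7 in MGT and 256 and 231 in MGT-shNT (log2 1.97, SE 0.044, adjusted p = 5.25e-17). Other immediate-early genes, chosen after their values were seen, moved less: Fos was at 9.54 and 10.7 in control and 14.9 and 13.3 in MGT-shNT, Junb rose by 0.27, and Fosb, Egr2 and Egr3 did not pass, at 0.11, -0.05 and 0.06. Fresh fibroblasts had 3545 and 3556 for Egr1. Col10a1, a collagen of hypertrophic cartilage, rose by 1.83, from 5.57 and 6.24 to 21.9 and 22.6, and was higher still with MGT, at 36.3 and 37.2. Sparcl1, a matricellular protein, rose by 1.81 over control and 1.02 over MGT, and Mest, an imprinted gene of growing mesoderm, by 1.54 and 1.11. Neto2, an auxiliary subunit of kainate receptors, rose by 1.66, Esr2, oestrogen receptor beta, by 1.53, Txlnb, a muscle taxilin, by 1.53, Col19a1 by 1.51 and Mmp15, a membrane-bound protease, by 1.36. Corin, Tnni3 and Pdk4, described above, complete the 12.

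Among the 8 largest increases over the MGT group were genes that were called lower with MGT than with control and higher with MGT-shNT. Smpd3, neutral sphingomyelinase, was at 9.94 and 11.97 in control, 3.34 and 3.56 in MGT and 14.9 and 13.4 in MGT-shNT, above MGT by 1.89 (SE 0.092, adjusted p = 3.92e-12). Lrrn4, a mesothelial membrane protein, was at 20.3 and 22.2, 9.11 and 9.26 and 28.3 and 26.5, above MGT by 1.53 (adjusted p = 6.62e-13). Against control the values were 0.36 for Smpd3 (adjusted p = 0.00267, and 0.0663 without control replicate 1) and 0.36 for Lrrn4 (adjusted p = 0.000137). Itga11, a collagen-binding integrin, showed the same order, at 38.5 and 39.9, 20.9 and 23.8 and 50.8 and 49.8. Mbnl3, a splicing regulator, was higher with MGT-shNT, at 19.9 and 19.4, than with control or MGT, at 7.61 and 8.22 and 8.87 and 8.82. In total 3352 genes were higher and 2646 lower in MGT-shNT than in MGT, of which 37 (0.291%) and 438 (3.45%) by at least 2-fold. This balance also turned, with 2798 higher and 2976 lower under TMM scaling and 2887 and 3002 in edgeR's quasi-likelihood test, again with TMM scaling. It did not turn without further scaling, at 3427 higher and 2598 lower, nor with upper-quartile scaling or quantile normalization.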

How the data were processed

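Bulk RNA-seq of 12 libraries was read from 1 table of CPM that the authors deposited; per the labels' protocols the libraries were strand-specific poly(A) preparations. Per the submitters' processing notes, FastQC, TopHat2 2.1.0 and HTSeq 0.6.1p1 were used with build mm10; for the annotation and strand setting nothing is given in the sources used here. Whole reads could be recovered for 100% of values (tolerance 0.1 read). CPM were divided by median-of-ratios factors (0.966 to 1.06), 0.5 was added and log2 taken. limma 3.58.1 (R 4.3.3) was fitted to all 12 libraries in 6 groups over the 13977 genes with at least 1 CPM in 2 libraries, with trend and 6 residual degrees of freedom, two-sided, Benjamini-Hochberg adjusted over all of them. With 2 libraries a group, the smallest p of an exact permutation test is 0.333, so none was used. In tests on simulated data the share of false calls was under the nominal level in 5 of 6 draws and above it in 1, and many of the smallest changes were missed. The simulated data changed far fewer genes than the 61.2% called here, with noise drawn independently for each library. Their false share therefore does not carry over to the real comparison. Gene positions are from GENCODE M21, promoters from RefSeq. Members and lists were chosen with earlier results of these data known. The genes named were the 12 largest called increases and decreases, the delivered factors and Ptbp1, up to 6 per list by size of change, up to 3 per list called against MGT, and the 8 largest differences from MGT each way; others were chosen after their values were seen. Alternatives covered scaling, pseudocount, filter, the libraries fitted, edgeR 4.0.16 on the recovered reads and leaving out each library. The 27 names turned into dates are in no list.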

Additional observations from a re-analysis of the deposited data

How the results depend on the processing

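Against control, the count of genes higher in MGT-shNT ranged from 3582 to 4314 and that of genes lower from 3026 to 3943 over all alternatives run, including edgeR's quasi-likelihood test on the recovered reads (3828 and 3943). The 93 genes higher by at least 2-fold became 38 with a pseudocount of 2. The 2423 genes lower in MGT than in control ranged from 1566 without MGT replicate 2 to 2206 without control replicate 1 when a library was left out. Replicate numbers were not taken to pair the libraries, since not every pair of groups had a positive correlation of deviations over 0.1: it was -0.136 for control and MGT-shNT and 0.162 for MGT-shNT and MGT with the Ptbp1 hairpin. With the replicate block 4146 genes were higher and 3551 lower, and with the control numbers crossed, a choice made after seeing the data, 4258 and 3614; against MGT the block gave 3297 and 2604. Of 237 named genes, 219 had the same direction and side of the threshold in each of the 19 settings that tested them, and none reversed. The filter at 5 CPM tested 226 of the 237. Most of the 237 were named for the size of their change, and 216 were called, so their stability says little about other genes. Of 72 list counts, 51 stayed within 1.5 times; those that a left-out library moved are given beside the counts. The 4 libraries differed little in depth, and each group has 2.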
